A study of Mus musculus with 189 samples.

Results

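The expression of 60 genes of the cell division cycle was followed through single mast lineage cells of the mouse peritoneal cavity. The 60 genes were a panel given by symbol, each matched 1 of the 46078 gene rows of the count table, and each had reads in the cells kept. By role, 11 were mitotic kinases, their cyclins, checkpoint kinases or genes acting with the anaphase-promoting complex, and 16 were spindle and kinetochore genes. A further 7 acted on chromosomes, the nuclear envelope or cytokinesis, 17 acted in DNA replication and 9 regulated entry into the cycle. A cell was called rich in cell cycle genes when at least 20 of the 60 genes had 10 or more reads in it. This was met by 4 of 187 cells, and the other 183 cells served as their background.

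The cells came from 4 female C57BL/6 mice, and the labels give no treatment, age or genetic change for them. Lineage-negative cells with surface c-Kit (the stem cell factor receptor) and FcεRI (the IgE receptor) were index-sorted one to a well in 2 gates. The mature mast cell gate held cells with low integrin β7 and high side scatter (94 cells), and the gate of basophil-mast cell progenitors (BMCPs) held cells with high integrin β7 and low side scatter (95 cells). Messenger RNA of each cell was copied from its poly(A) tail, amplified with 23 PCR cycles and sequenced without molecular identifiers. The labels do not tie cells to mice, so each gate was 1 pooled sample; no test between gates was run, and the intervals given here cover counting error only.

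As background, the cycle is driven by cyclins that switch on their kinases in turn. D-type cyclins open it by relieving the block of the retinoblastoma protein on E2F factors, cyclins E and A with the MCM helicase and the replication factors carry it through S phase, and cyclin B with Cdk1 starts mitosis until the anaphase-promoting complex destroys the cyclin. Mast cells of the peritoneal cavity are long-lived, filled with protease granules, and mostly resting, although they keep the ability to divide. In resting cells the genes of mitosis are held off through a promoter motif, the cell cycle genes homology region (TTTGAA and close variants), often placed a short way downstream of CCAAT boxes, while many replication genes carry E2F motifs such as TTCCCGC and TTGGCGC.

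The promoters of 5 of the genes are shown as examples of these classes within the panel. Whether the motifs bear on levels in the rich cells was not tested. Cdk1, Ccnb1 (cyclin B1) and Top2a (DNA topoisomerase of mitotic chromosomes) belong to the mitotic class, and Rrm1 (ribonucleotide reductase) and Mcm6 (a helicase subunit) to the replication class. Each stretch lies just upstream of the annotated gene, is written 5′ to 3′ on the gene's own strand, and has in capitals the matches, in either orientation, to TTTGAA and its variant TTTAAA, to the box CCAAT, and to the E2F motifs TTCCCGC and also TTGGCGC. Matches inside the annotated gene are left out. These include a TTTAAA 42 bases before the RefSeq transcription start of Ccnb1, whose stretch therefore shows neither TTTGAA nor TTTAAA. They also include a second TTTGAA 15 bases before that of Cdk1. The sequences are from RefSeq on build GRCm38.p6, at chr10:69352939-69353062 (minus strand) for Cdk1, chr13:100786571-100786636 (minus) for Ccnb1, chr11:99024190-99024339 (minus) for Top2a, chr7:102441545-102441694 (plus) for Rrm1 and chr1:128359706-128359855 (minus) for Mcm6.
Cdk1: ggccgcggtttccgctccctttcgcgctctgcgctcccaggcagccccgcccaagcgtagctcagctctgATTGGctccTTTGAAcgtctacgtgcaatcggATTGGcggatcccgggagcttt
Ccnb1: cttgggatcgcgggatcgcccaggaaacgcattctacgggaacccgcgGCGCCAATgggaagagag
Top2a: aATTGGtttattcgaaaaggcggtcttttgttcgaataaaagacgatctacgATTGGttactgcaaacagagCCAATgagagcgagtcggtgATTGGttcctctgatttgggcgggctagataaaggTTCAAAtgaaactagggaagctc
Rrm1: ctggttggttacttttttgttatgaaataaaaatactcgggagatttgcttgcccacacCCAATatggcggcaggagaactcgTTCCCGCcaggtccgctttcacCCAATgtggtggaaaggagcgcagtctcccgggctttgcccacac
Mcm6: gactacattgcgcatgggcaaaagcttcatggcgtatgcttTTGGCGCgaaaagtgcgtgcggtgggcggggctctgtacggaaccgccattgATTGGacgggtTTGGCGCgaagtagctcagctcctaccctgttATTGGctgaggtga

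RefSeq gave promoter windows of 300 bases (250 before and 50 after the transcription start) for 50 of the 60 genes. TTTGAA, read on both strands, occurred in a window of 7 of 9 mitotic kinase, cyclin and anaphase-promoting complex genes, 10 of 15 spindle and kinetochore genes and 6 of 6 chromosome and cytokinesis genes. It occurred in 3 of 14 replication genes and 0 of 6 cycle entry regulators, beside 20.2% of the 27025 genes with such windows. CCAAT occurred in 36 of 50 members (72%) and in 9 of 9 genes of the mitotic kinase group, beside 41.1% of all genes. TTCCCGC or TTGGCGC occurred in 7 of 14 replication genes (50%), in 4 of 30 genes of the mitotic, spindle and chromosome groups together (13.3%) and in 7.79% of all genes. TTTAAA occurred in 14 of 50 members (28%) and in 14.9% of all genes. Matches of different motifs overlapped in 4 of 57 member windows, as in the Ccnb1 stretch above, and a match describes letters and not a bound site.

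Reads of genes (without spike-ins) ranged from 561600 to 2152221 per mature mast cell and from 344022 to 2091665 per kept BMCP. Values are given per cell as CPM (counts per 1000000 gene reads of that cell), which grow with transcript length and so are compared here within a gene and not between genes. 2 BMCPs with fewer than 100000 gene reads were left out. Among the kept BMCPs, cells 46 and 80 carried B cell reads with 0.113% and 0.156% of their reads in mast cell granule genes, and cell 55 had 24.7 gene reads per spike-in read, the lowest of its gate, beside a median of 557. Results that turned on these cells are given without them as well. The panel lies on 17 chromosomes, and 14 of its genes share exonic bases with another coding gene in the GENCODE annotation, which leaves their counts uncertain: Ccna2, Cdc20, Ube2c, Nusap1, Tacc3, Lbr, Mcm7, Gins2, Rfc2, Cdc45, Fen1, Ccne2, Ccnd3 and Rb1.

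The cells rich in cell cycle genes were rare in both gates. Mature mast cell 70 had 53 of the 60 genes at 10 reads or more, mature mast cell 59 had 47, BMCP 48 had 45 and mature mast cell 25 had 20. They made up 3 of 94 mature mast cells (3.19%, exact Clopper-Pearson interval 0.663% to 9.04%) and 1 of 93 BMCPs (1.08%, 0.0272% to 5.85%), and these intervals overlap. The other mature mast cells had a median of 8 of the genes (range 4 to 19) and the other BMCPs a median of 7 (range 0 to 13). Mature mast cell 25 stood at the limit itself, and mature mast cells 11, 4 and 8 came next with 19, 18 and 16 genes. No cell lay between 20 and 45 genes. When every cell was thinned to 100000 reads, the 4 cells had 54, 47, 46 and 21 of the genes with a read, and no other cell had more than 19.

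**Figure D1:**
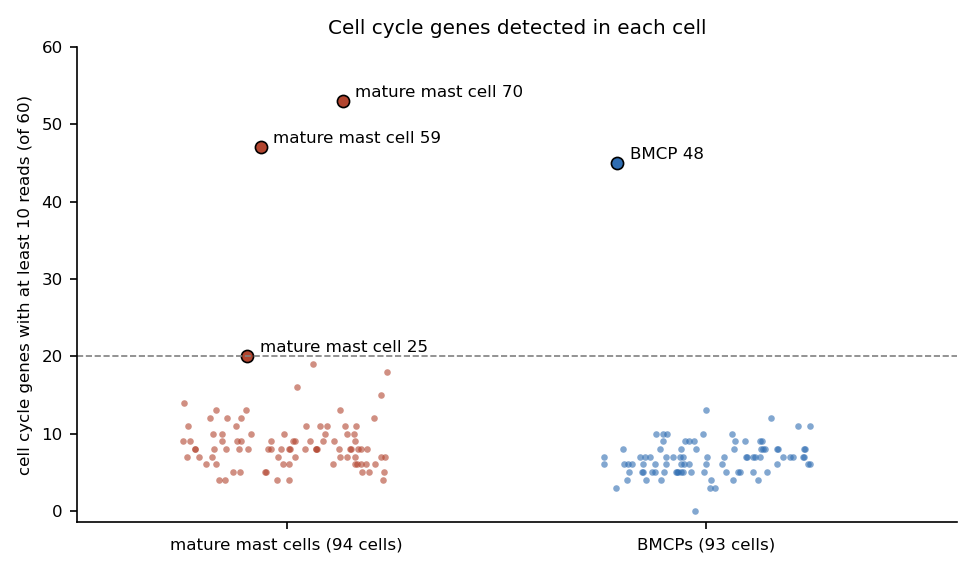
Number of the 60 cell cycle genes with at least 10 reads (vertical axis) in each of 94 mature mast cells and 93 BMCPs; each point is a cell, spread sideways at random, and the dashed line marks 20 genes. Mature mast cells 70 and 59 and BMCP 48 lie between 45 and 53 genes, mature mast cell 25 lies on the line, and the other cells lie between 0 and 19.

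Although the 4 cells were 2.14% of the cells and 1.89% of all gene reads, they held 9.04% of the reads of the 60 genes. The share differed by role: it was 76.5% for the mitotic kinase, cyclin and anaphase-promoting complex group, 17.98% for the spindle and kinetochore genes, 10.9% for the chromosome and cytokinesis genes, 6.10% for the replication genes and 2.24% for the cycle entry regulators. A few common genes such as Kif23 weigh on these sums, and the medians over the genes of each role were 97.2%, 62.3%, 42.2%, 10.7% and 5.25%. By gene, 14 members had at least 90% of their reads in the 4 cells, 25 had at least 50%, and 17 had under 10%. For 11 members no other cell reached 10 reads: the 4 cells had 8757 reads of these genes, the other 183 cells together had 24, and no other cell had more than 5 of any. These were Ccnb1, Bub1, Bub1b, Ube2c, Kif11, Tpx2, Hmmr, Ckap2, Birc5, Uhrf1 and Ccne1. Since member reads chose the cells, these values describe them and are not tested.

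Among the mitotic kinases and cyclins, Cdk1, the kinase that starts mitosis, was at 825 CPM in mature mast cell 70, 562 in mature mast cell 59, 239 in BMCP 48 and 0 in mature mast cell 25. Ccnb2 (cyclin B2), a partner of Cdk1, followed with 976, 1299, 649.9 and 0 CPM, and Ccnb1 (cyclin B1) with 21.2, 132, 48.4 and 0 CPM. Ccna2 (cyclin A2), which serves both S phase and the approach to mitosis, was at 283, 1324, 533 and 0 CPM in the same order. Each of these genes was present in 3 of the 4 cells and absent from mature mast cell 25, and each had its highest level in mature mast cell 59 except Cdk1. Of the kinases of the spindle, Aurkb (Aurora B, part of the chromosomal passenger complex) was at 901, 554, 433 and 0 CPM, whereas Aurka (Aurora A, which acts at spindle poles) was at 1.33, 642, 0 and 0 CPM.

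The spindle checkpoint delays anaphase until chromosomes are attached. Its kinase gene Bub1 had reads in mature mast cell 59 alone of 187 cells (68 reads, 65.4 CPM). Its relative Bub1b was at 237, 354, 350.1 and 0 CPM in cells 70, 59, BMCP 48 and 25, and had no read in any other cell. Ttk, the checkpoint kinase at kinetochores, was at 47.8, 0, 78.7 and 0 CPM. Of the destruction machinery, Ube2c (the ubiquitin-conjugating enzyme of the anaphase-promoting complex) was at 346, 1575, 359 and 0 CPM, with at most 1 read in any other cell. Cdc20, the activator of that complex, was at 35.8, 916, 0 and 0 CPM. Mature mast cell 59 was thus the highest of the 4 in Aurka, Bub1, Cdc20, Ube2c and all 3 cyclins of this group, and lacked only Ttk of its 11 genes. The summed level of the group was 3674 CPM in mature mast cell 70, 7423 in mature mast cell 59, 2691 in BMCP 48 and 0 in mature mast cell 25, beside medians of 0 in the other cells of both gates. Reads of Ube2c, Ccna2 and Cdc20 are uncertain in part, because their exons overlap those of Tnnc2, Exosc9 and Elovl1 and no strand setting is given.

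The spindle and kinetochore genes were found in the same 3 cells, with 15, 16 and 13 of the 16 genes at 10 reads in mature mast cells 70 and 59 and BMCP 48, and 2 in mature mast cell 25. Birc5 (survivin, of the chromosomal passenger complex) was at 539, 899, 552 and 0 CPM, and 1 read of it fell outside the 4 cells. Tpx2, which activates Aurora A on the spindle, was at 298, 692, 323 and 0 CPM. Kif11, the motor that pushes spindle poles apart, was at 70.3, 212, 55.03 and 0 CPM. All 3 genes were highest in mature mast cell 59. Kinetochore genes varied more: Nuf2 was at 137, 392, 499 and 0 CPM, and its partner Ndc80 at 176, 214, 0 and 0 CPM. Cenpa (the histone of centromeres) was at 180.4, 954, 186 and 0 CPM, and Cenpf, a large kinetochore protein, at 446, 899.6, 146 and 0 CPM. The genes of this group in mature mast cell 25 were Ckap2, a microtubule-associated protein (105 CPM there, 212, 269 and 127 in the other 3), and Tacc3, which stabilises spindle fibres (384, beside 723, 233 and 324). Ckap2 reached no more than 1 read in any cell outside the 4. The remaining members Cenpe, Kif20b, Kif2c, Nusap1, Hmmr, Ckap5 and Kif23 were between 0 and 626 CPM in the 4 cells. Kif23 was also common elsewhere, as described below. Ckap5 had 10 reads or more in 17 of the 91 other mature mast cells and 11 of the 92 other BMCPs.

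Among chromosome genes, Top2a was at 958, 1088, 1282 and 202 CPM in cells 70, 59, BMCP 48 and 25, and 4 of the other 183 cells had 10 reads or more. Smc2, a core subunit of condensin, was at 391, 722, 482 and 112 CPM. Its partner Smc4 was at 1596, 544, 401 and 0 CPM. Mki67, the source of the Ki-67 antigen that coats mitotic chromosomes, was at 787, 217, 237 and 0 CPM, and in 6 other cells at 10 reads or more. Anln (anillin, of the cleavage furrow) was at 257, 216, 16.1 and 0 CPM. Ect2, the exchange factor that sets the furrow, was the reverse, at 0, 8.66, 0 and 236 CPM. Mature mast cell 25 thus had the highest Ect2 of the 4 cells and no read of Mki67, Smc4 or Anln.

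The replication genes divided the cells differently. BMCP 48 and mature mast cell 70 each had 16 of the 17 genes at 10 reads, and mature mast cells 59 and 25 had 9 each. The helicase subunits were at 476, 0, 343 and 198 CPM for Mcm2, 605, 114, 1009 and 512 for Mcm3, and 312, 0, 73.1 and 673 for Mcm6, in cells 70, 59, BMCP 48 and 25. Mcm7 was at 349, 0, 169.8 and 294 CPM. Mature mast cell 59 had no read of Mcm2, Mcm6 or Mcm7, nor of Pcna (the sliding clamp), Cdc6 and Cdc45 (helicase loading and activation), Gins2 and Fen1. It did have Mcm5 (246 CPM), Rrm1 (368), Rrm2 (192) and Tyms (241), the last 3 being enzymes of nucleotide supply. In mature mast cell 70 Rrm1 was at 1109 and Rrm2 at 1044 CPM, and in BMCP 48 they were at 145 and 506. Tyms (thymidylate synthase) was highest in BMCP 48, at 796 CPM, beside 275 in mature mast cell 70 and 179 in mature mast cell 25. Summed over the group, the level was 6945 CPM in mature mast cell 70, 2174 in mature mast cell 59, 8399 in BMCP 48 and 4536 in mature mast cell 25, beside a median of 1176 in the other mature mast cells and 1640 in the other BMCPs. Much of those medians was Rfc2, whose counts are uncertain, as described below.

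Of the 9 cycle entry regulators, mature mast cells 70, 59 and 25 had 7, 6 and 5 at 10 reads, and no other mature mast cell had more than 4. BMCP 48 had 3, within the range of 0 to 5 of the other BMCPs. The E-type cyclins, which act at the start of S phase, were found in 2 of the 4: Ccne1 was at 125 CPM in mature mast cell 70 and 4.74 in BMCP 48, and Ccne2 at 292 and 160.3, with no read of either in mature mast cells 59 and 25. Ccnd2 (cyclin D2) had 0 reads in mature mast cell 70, 67 in mature mast cell 59, 3 in BMCP 48 and 584 in mature mast cell 25. In CPM these were 0, 64.5, 2.85 and 353, beside medians of 225 in the other mature mast cells and 339.7 in the other BMCPs. The 3 cells with mitotic genes were thus below both medians. The inhibitor gene Cdkn1b (p27) was at 175, 67.4, 149 and 16.3 CPM, all 4 above the medians of the others, 3.17 in mature mast cells and 10.7 in BMCPs. Cdkn1a (p21) was at 79.6, 101, 128 and 0 CPM and Cdkn2c (p18, an inhibitor of the D-cyclin kinases) at 157, 279, 0 and 98.4. E2f1 had reads in mature mast cells 59 and 25 (155 and 29.6 CPM), and Rb1 in mature mast cells 70 and 59 (118 and 7.70).

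**Figure D2:**
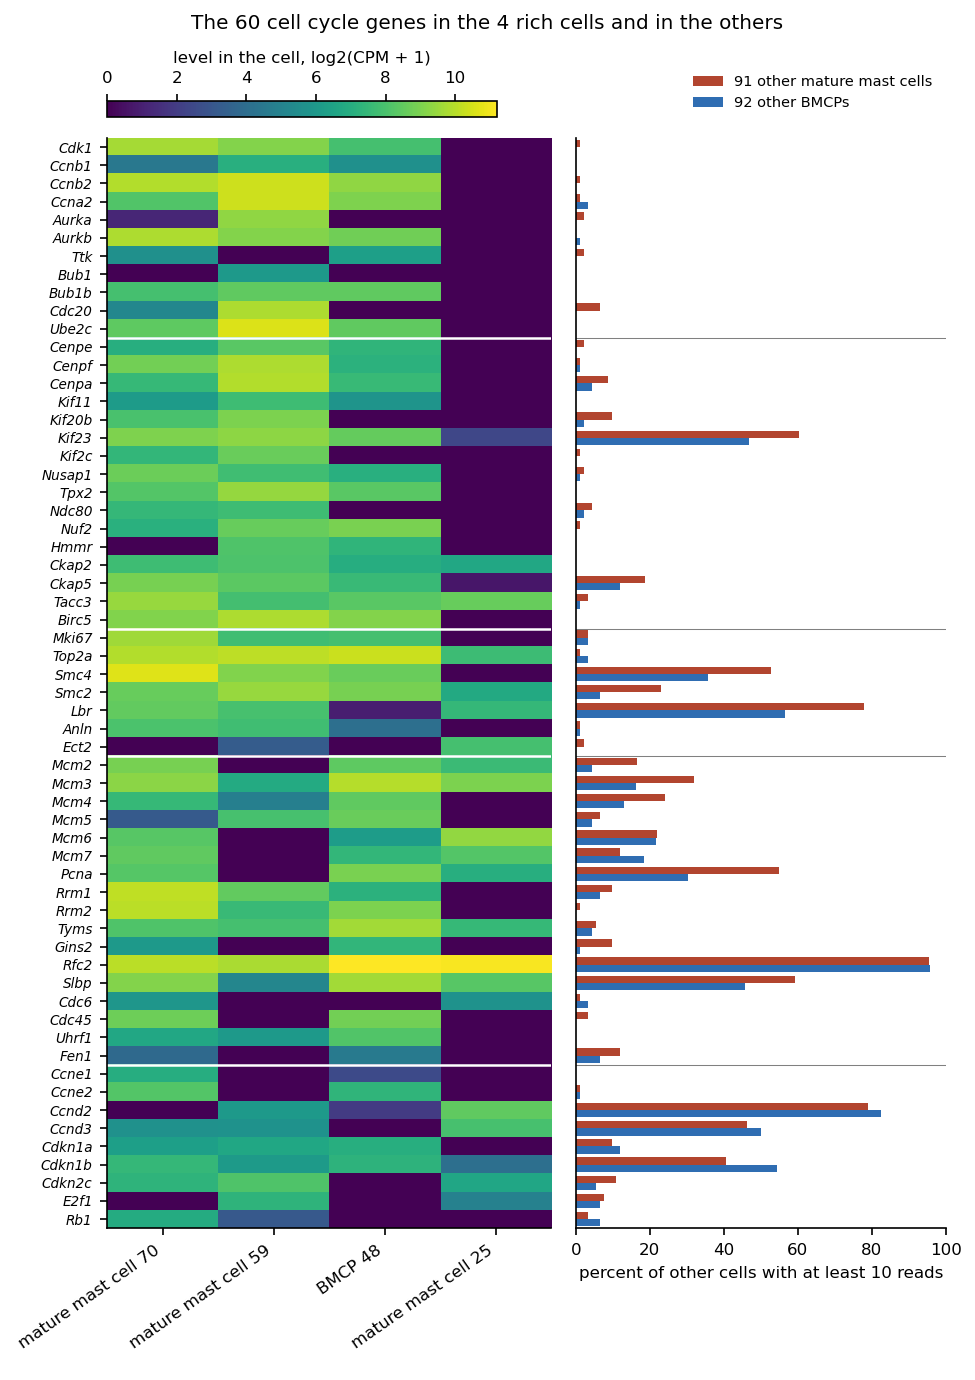
Left, level of the 60 genes, as log2(CPM + 1), in the 4 rich cells, with white lines between the 5 roles; right, percent of the 91 other mature mast cells (red) and 92 other BMCPs (blue) with at least 10 reads. The mitotic kinase and cyclin rows at the top are mostly filled in mature mast cells 70 and 59 and BMCP 48, at 0 in mature mast cell 25 and at 0% to 6.59% of other cells, while Rfc2, Ccnd2 and Lbr are above 50% in the other cells of both gates.

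The 4 cells were therefore not alike. All 60 genes were at 10 reads or more in at least 1 of them, 34 in all 3 of mature mast cells 70 and 59 and BMCP 48, and 9 in all 4 (Ckap2, Tacc3, Top2a, Smc2, Mcm3, Tyms, Rfc2, Slbp and Cdkn1b). Mature mast cell 25 had 0 of the 11 mitotic kinase, cyclin and anaphase-promoting complex genes, which goes against calling it a cell in mitosis, and it is named here only as rich in cell cycle genes. The cells just below the limit resembled it in that respect: mature mast cells 11, 4 and 8 had 9, 11 and 8 of the 17 replication genes and none of the 11 mitotic ones. Among all 183 other cells, 4 had 8 or more replication genes at 10 reads, all in the mature gate, and none of these had a gene of the mitotic group.

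Further genes, whose reads the rule for rich cells did not use, were described in the same cells. Their lists were chosen with earlier results of these data known. A further 154 cell cycle genes were grouped as mitosis (60), DNA replication and S phase (46), regulators (24), and chromatin, tubulin and general proliferation genes (24). Ratios were taken as log2 of pooled CPM plus 1 in the 4 cells over the 183 others, for genes with at least 5 CPM in either pool. Of 10524 such genes in all, 21.1% were at least 2-fold higher in the 4 cells and 37.5% at least 2-fold lower, with a median of -0.26. Of the mitosis genes 55 of 57 were at least 2-fold higher (median 5.22), of the S phase genes 35 of 41 (median 3.00), of the chromatin and tubulin genes 24 of 24 (median 2.26), and of the regulators 7 of 19 (median 0.71). Genes that reached 5 CPM only in the 4 cells could only come out higher. Pbk (0 CPM in the others) and Cenpm (0.0257) were of this kind, so these counts describe the lists and are no test. Without mature mast cell 25, 22.7% of all genes were at least 2-fold higher, and the counts were 56 of 58 mitosis genes, 31 of 41 S phase genes, 24 of 24 chromatin and tubulin genes and 9 of 18 regulators. Mature mast cell 25 taken alone had 3 of 14 mitosis genes and 23 of 33 S phase genes at least 2-fold higher, where 16.9% of all genes were. The totals differ because the minimum was applied anew to each pool, so they do not cover the same genes.

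At 10 reads, mature mast cell 59 had 52 of the 60 further mitosis genes, mature mast cell 70 had 38, BMCP 48 had 36 and mature mast cell 25 had 4, and the other cells had at most 8. Of the 46 further S phase genes BMCP 48 had 30, mature mast cell 70 had 25, mature mast cell 25 had 24 and mature mast cell 59 had 21, and no other cell had more than 13. On this list mature mast cell 25 was above every cell outside the 4, including the 3 just below the limit, with 13, 13 and 9. These counts were made without thinning. The 4 cells also had more genes of any kind than the other cells of their gates, where the most were 5167 (mature) and 5428 (BMCP). The part of that in these counts was not tested. The mitosis genes with most CPM, named by that rule and not as a ranking of transcripts, were Spc25 (a kinetochore protein), Pbk (a mitotic kinase) and Mad2l1 (the checkpoint protein Mad2), at 613, 445 and 352 in the pooled 4 cells and 2.72, 0 and 10.9 in the pooled others. Pbk had 2003 reads in mature mast cells 70 and 59 and BMCP 48 and none in the other 184 cells. The S phase genes named by the same rule were Tipin, a protein of the replication fork (374 against 47.6 CPM), and the polymerase alpha subunits Pola1 (366 against 17.8) and Pola2 (289.8 against 69.7). Pola1 was highest in mature mast cell 25, at 713 CPM, and had no read in mature mast cell 59.

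Regulators followed less closely. Cdk4, Cdk6 and Cdk2, the kinases of the early cycle, were at 704, 647 and 199 CPM in the 4 cells and 224, 395 and 82.3 in the others, where 113, 141 and 58 of 183 cells had them at 10 reads. Rbl2 (p130, the retinoblastoma relative of resting cells) was at 0.666 against 69.6 CPM and Myc at 0.222 against 24.2, both at least 2-fold lower in the 4 cells. Chaf1b, a subunit of the chromatin assembly factor, went against its list in the same way, at 0.222 against 48.03 CPM. So did Timeless on the S phase list, and Pttg1 (securin) and Bora on the mitosis list. These 6 were named after their values were seen. Tubb5, a beta tubulin, was at 8604, 2597, 6382 and 1589 CPM in cells 70, 59, BMCP 48 and 25, beside 624 in the pooled others. Asf1b, a histone chaperone, was at 744 against 10.9 CPM, and Tubb4b, another beta tubulin, at 498 against 77.9.

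**Figure D3:**
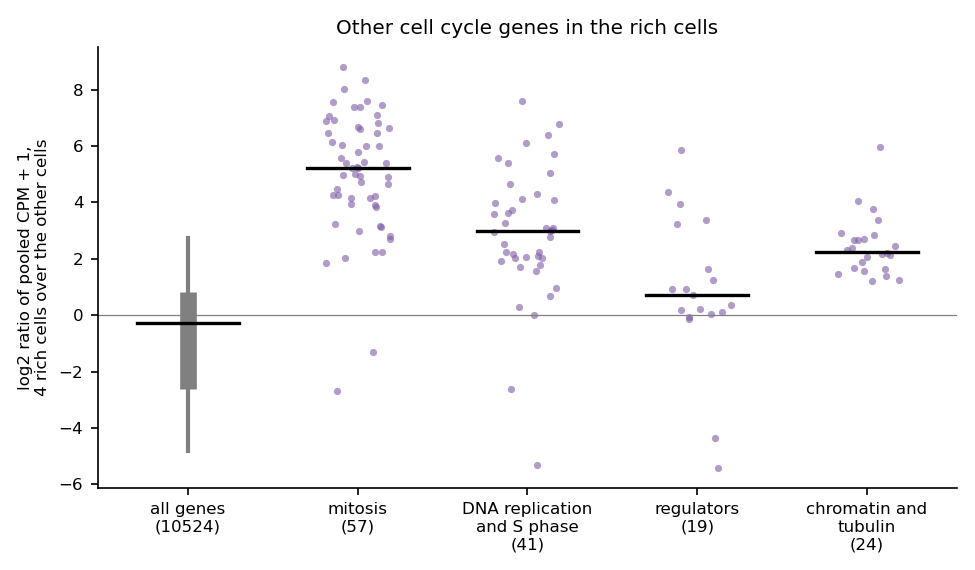
Log2 ratio of pooled CPM plus 1 in the 4 rich cells over the 183 others (vertical axis) for all genes (grey, thick from the 25th to the 75th percentile and thin from the 5th to the 95th) and for each gene of 4 further cell cycle lists (points), with medians as black lines and numbers of genes in brackets. The medians are -0.26 for all genes, 5.22 for mitosis, 3.00 for S phase, 0.71 for regulators and 2.26 for chromatin and tubulin genes. Genes with at least 5 CPM in either pool are drawn, and those at that level only in the 4 cells can only lie on the higher side.

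Outside the panel of 60, 1005 genes had at least 50 CPM in the pooled 4 cells and 10 reads or more in each of them. The genes with the 10 largest ratios among these are given. Levels in the 4 cells chose them, so they describe these cells and are no test. Cenpm, a centromere protein, was at 362, 65.4, 145 and 221 CPM in cells 70, 59, BMCP 48 and 25, and no other cell had 10 reads. Lockd, a long noncoding RNA beside the Cdkn1b gene, was at 121, 138, 270.4 and 14.5 CPM, with 6 other cells at 10 reads. Fignl1, a DNA repair ATPase, was at 227 CPM in the 4 cells and 3.35 in the others, and Tcf19 at 337 and 14.04. The other genes of the 10 largest were Spc25, Racgap1 (a partner of Ect2 and Kif23 at the midzone), Cenpw, Stmn1 (stathmin, which takes tubulin apart), Slc43a3 and the processed pseudogene Gm11223, whose reads may be shared with its parent gene. Cenpm, Spc25, Racgap1 and Stmn1 were also on the further lists above. For the reverse direction, genes needed at least 50 CPM in the pooled others and a read in at least 50% of them. The 5 largest were then Lag3, Ighm, Gsn (gelsolin), Rinl and Padi2. Gsn and Rinl had no read in the 4 cells, which allows up to 0.67 CPM over the group, and were at 148 and 145 CPM in the others, with 66 and 65 of 183 cells at 10 reads. Padi2 was at 0.444 against 202 CPM, with 112 of 183 cells at 10 reads. Lag3 and Ighm (an antibody heavy chain) had 10 reads or more in 41 and 71 of 183 cells. The pooled others hold another mix of gates than the 4 cells, and include the 2 BMCPs with B cell reads; the part of either in these values was not tested.

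The cell type labels of the rich cells were checked with granule and surface genes. Granule genes took 21.9% of the reads of mature mast cell 70, 20.0% of mature mast cell 59 and 25.6% of mature mast cell 25, beside a median of 28.2% (range 14.3% to 36.9%) in the other mature mast cells. Counted from the highest share, these cells were the 92nd, 93rd and 78th of 94. Leaving the 60 genes out of the totals gave 22.3%, 20.4% and 25.8%. All 10 granule genes had 10 reads or more in each of the 3 cells. The chymase Cma1 was at 93669.5, 92182 and 90134 CPM in cells 70, 59 and 25, near the median of 90967. The tryptase Tpsb2 was lower, at 57932, 30150.1 and 47435 CPM, with 85, 90 and 88 of the 91 others above them. Carboxypeptidase A3 (Cpa3) was at 30986, 43792 and 67052 CPM, with 89, 89 and 57 others above. Hdc, which makes histamine, was at 110.1, 1665 and 2982 CPM, with 88, 37 and 8 others above. Prss34 (mast cell protease 11), a protease of basophils and some mast cells, was at 9208 CPM in mature mast cell 70, 7197 in mature mast cell 59 and 8.46 in mature mast cell 25. Of the 91 other mature mast cells, 6 were above the first and 17 above the second of these values.

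BMCP 48 had 5 of the 6 genes of the progenitor gate set at 10 reads or more. Its granule share was 7.88%, the 74th of 93 BMCPs, where the others had a median of 17.3% (range 0.113% to 33.9%). Gzmb (granzyme B) was at 12350.2 CPM, with 9 of the 92 other BMCPs higher, and Mcpt8, a basophil protease, at 22693, with 5 higher. Scin and Nkg7 were at 1848 and 4531 CPM, with 9 and 3 higher, and Itga4 at 115, with 34 higher. Lag3 of the same set had no read, and 73 of the 92 were higher. These were not levels of the gate as a whole, whose medians were 3756 CPM for Gzmb, 8.38 for Mcpt8, 2.57 for Scin and 3.62 for Nkg7. Of the 10 granule genes, 8 had 10 reads or more in BMCP 48. Cma1 was at 35975 CPM and Cpa3 at 31403, below 62 and 82 of the 92, and Srgn (serglycin) at 8954, below 7. The tryptase Tpsb2 was at 194 CPM, below 71 of the 92, and Mcpt4 at 28.5, beside a median of 33.4. Itgb7, the integrin β7 of the sort, was at 1345 CPM, below 43. Fcer1a, the IgE receptor alpha chain used in the sort, was at 296 CPM, below 85 of the 92, and Kit at 177, below 83. The 3 mature cells had Fcer1a at 5812, 7054 and 8341 CPM, each above the median of 3475. Their Kit was at 630, 646 and 809 CPM, each below the median of 864, and Fcer1g, the receptor's gamma chain, at 1852, 2402 and 3262 CPM, around a median of 2832.

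Markers of other cells were looked for in the same 4. The T cell, eosinophil, neutrophil and erythroid lists had no read in any of them, and of the 6 macrophage markers 5 were at 0. Apoe, the other one, was between 842 and 6101 CPM, beside medians of 5529.8 in the other mature mast cells and 3267 in the other BMCPs. The B cell list summed to 0 in mature mast cells 70 and 25 and summed to 19.9 CPM in BMCP 48. In mature mast cell 59 it summed to 373 CPM, of which Cd79b gave 342 and Cd74 29.8, with Cd79a and Ms4a1 at 0. Only 1 of the 91 other mature mast cells was higher in Cd79b, and 1 in Cd74. The part of such reads in the values of this cell was not tested. The list sums of the others ranged from 0 to 1355 CPM, and the top of that range was mostly Ighm (highest 1351 CPM), which was at 1.92 in mature mast cell 59. Basophil markers other than Mcpt8 and Prss34 were at most 1231 CPM (Cd200r3 in mature mast cell 25), and Cebpa was at 0 in all cells of both gates.

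The rich cells lay inside the range of the others in RNA content, and at or near the top of their gates in the number of genes detected. Gene reads per spike-in read, a measure of RNA content, were 2058 in mature mast cell 59 (the 9th of 94), 1604 in mature mast cell 70 (the 19th), 1275 in mature mast cell 25 (the 27th) and 642 in BMCP 48 (the 36th of 93). The other mature mast cells had a median of 935 (range 309 to 3873) and the other BMCPs a median of 557 (range 24.7 to 2382). At 100000 reads per cell 5316 genes were detected in mature mast cell 59, 4140 in mature mast cell 70 and 3897 in mature mast cell 25, ranking 1, 2 and 4 in their gate, where the others had a median of 2882 and a maximum of 3958. BMCP 48 had 4055, the highest of its gate (others: median 2469, maximum 3827). Without thinning the numbers were 6773, 5171, 5256 and 5448 genes, beside maxima of 5167 in the other mature mast cells and 5428 in the other BMCPs. Their total reads (753917 in mature mast cell 70, 1039301 in mature mast cell 59, 1655816 in mature mast cell 25 and 1053995 in BMCP 48) lay within the range of the others.

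Outside the rich cells, genes of the mitotic kinase, cyclin and anaphase-promoting complex group were mostly seen one at a time. Of the 183 other cells, 16 had a gene of that group at 10 reads or more (12 of 91 mature mast cells and 4 of 92 BMCPs), and 15 of the 16 had only 1 such gene. The count was also 16 at 5 reads and at 20 reads. Mature mast cell 9 was the exception, with 76 reads of Ccnb2 and 22 of Ccna2. Cdc20 accounted for 6 of the 12 mature cells, with 48 to 407 reads, Aurka and Ttk for 2 each and Cdk1 for 1 (342 reads in mature mast cell 30). Ccna2 accounted for 3 of the 4 BMCPs (38, 58 and 602 reads) and Aurkb for 1. A cell with up to 407 reads of Cdc20 and no other gene of its group at 10 reads therefore differed from mature mast cell 59, which had 952 reads of Cdc20 and 9 further genes of its group.

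The gates were compared over the 91 and 92 other cells. The 60 genes summed to 2486 CPM in the mature mast cells and 3195 CPM in the BMCPs, a log2 ratio of -0.36 that became -0.32 without BMCP 55 and 0.54 when scaled by spike-ins. At least 5 CPM in either gate was reached by 34 genes, whose median log2 ratio was 0.02, where the median of all 10512 genes above that level was -0.26. Of the 34, 8 were at least 2-fold higher in mature mast cells and 5 in BMCPs, beside 9.75% and 19.6% of all genes. The 8 were Aurka, Cdc20, Kif20b, Tacc3, Smc2, Mcm2, Gins2 and Cdc45, and the 5 were Ccna2, Top2a, Ccnd3, Cdkn1b and Rb1. The remaining 21 differed by less than 2-fold, and 26 of the 60 were below 5 CPM in both gates.

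Most of these folds rested on few cells. For 7 of the 13 the call was lost when the single leading cell of 1 gate or the other was dropped. Top2a was at 18.4 CPM in BMCPs and 2.94 in mature mast cells (log2 ratio -2.30), yet 2104 of its 2175 BMCP reads were in BMCP 46, which carried B cell reads, and without it the ratio was 1.29. Top2a was then below 5 CPM in both gates, and 333 of its 339 mature reads were in mature mast cell 19. Ccna2 was at 5.89 and 0.208 CPM (-2.51), and 602 of 698 BMCP reads were in BMCP 11, without which the ratio was -0.59. Rb1 was at 11.6 and 3.27 CPM (-1.56), and was -0.08 without BMCP 78. In the other direction, 1405 of the 1812 mature reads of Tacc3 were in mature mast cell 90 (3.66, and 1.79 without it), 638 of 1172 of Aurka in mature mast cell 51 (3.47 and 2.50), and 471 of 1028 of Cdc45 in mature mast cell 12 (3.28 and 2.53). These 3 lost the call because they then fell below 5 CPM in both gates. Smc2 was at 1.05 and fell to 0.87 without mature mast cell 62. Genes under the limit could also pass it when 1 leading cell was dropped. Without the leading BMCP this held for Cenpa (1.33) and Cdkn2c (1.28). Without the leading mature mast cell it held for Ndc80 (-1.41), Mki67 (-1.38), Kif23 (-1.04) and Mcm7 (-1.03). Ndc80 was at -0.88, but 1140 of its 1530 BMCP reads were in BMCP 80, which carried B cell reads, and without it the ratio was 0.81.

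With the leading cell of each gate dropped 1 at a time, 6 genes passed the 2-fold limit in both cases. They were Cdc20, Kif20b, Mcm2, Gins2, Ccnd3 and Cdkn1b. Cdc20 was at 13.1 CPM in mature mast cells (exact Poisson interval 12.5 to 13.8) and 0.0253 in BMCPs, with 6 of 91 and 0 of 92 cells at 10 reads. The replication factor Gins2 was at 18.3 and 2.15 CPM, with 9 and 1 cells, but 2758 of its exonic bases are shared with Gse1. Kif20b, a motor of the midzone, was at 16.98 and 3.76 CPM, with 9 and 2 cells, and Mcm2 at 50.5 and 17.7, with 15 and 4 cells. The count table lists each gate in 2 runs of cell numbers. In the lower and the higher run taken alone, 4 of the 6 passed the limit in both (Cdc20, Gins2, Ccnd3 and Cdkn1b), while Kif20b was at 2.49 and 0.77 and Mcm2 at 0.52 and 5.33.

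**Figure D4:**
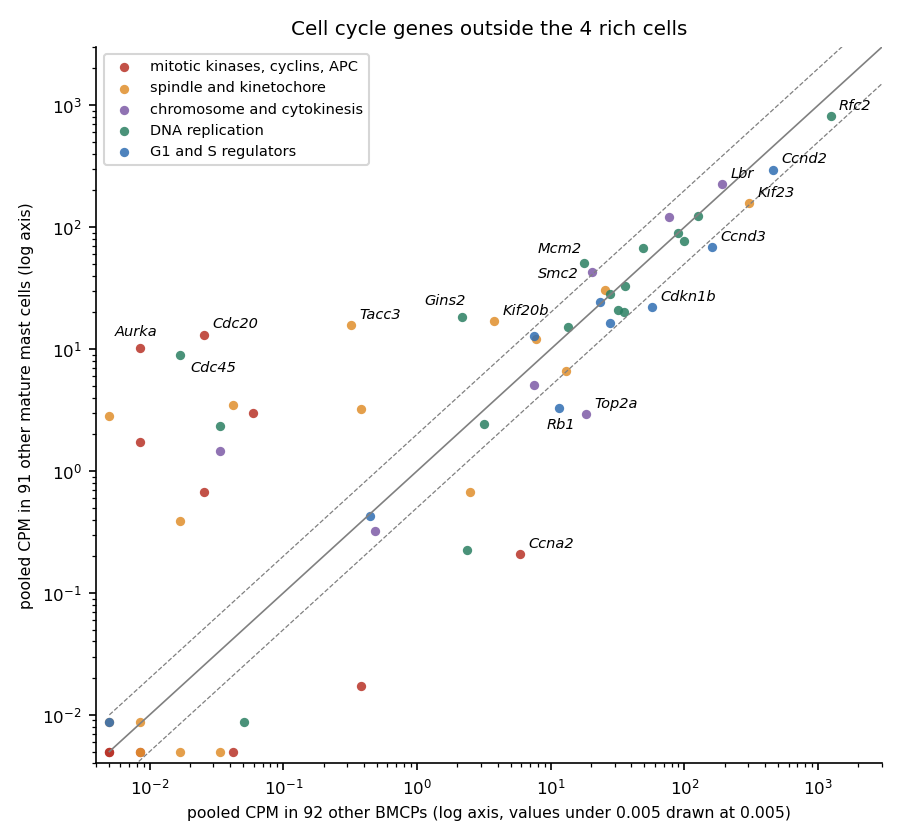
Pooled CPM of each of the 60 genes in 92 BMCPs (horizontal) and 91 mature mast cells (vertical) without the 4 rich cells, on log axes and coloured by role; the solid line marks equal levels and the dashed lines a 2-fold difference in CPM. Genes such as Rfc2, Ccnd2, Lbr and Pcna lie within the dashed lines, and Aurka, Cdc20 and Cdc45, far to the upper left, had 10 reads or more in 2, 6 and 3 cells.

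The 10 members found in at least 25% of the other cells of a gate were Kif23, Smc4, Lbr, Mcm3, Pcna, Rfc2, Slbp, Ccnd2, Ccnd3 and Cdkn1b. Ccnd2 had 10 reads or more in 72 of 91 mature mast cells and 76 of 92 BMCPs. Its lowest, median and highest levels were 0, 225 and 1045 CPM in mature mast cells and 0, 339.7 and 2699.6 in BMCPs, so the gates overlapped throughout (pooled log2 ratio -0.63). Ccnd3 (cyclin D3) was found in 42 and 46 cells, with medians of 1.13 and 6.44 CPM and highest levels of 416 and 1156. Its pooled level was 68.2 CPM in mature mast cells (66.7 to 69.7) and 161 in BMCPs (159 to 163), a log2 ratio of -1.23 that was -0.98 with TMM scaling and -0.34 with spike-in scaling. Some of its exonic bases are shared with Bysl.

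Cdkn1b was found at 10 reads in 37 of 91 mature mast cells (40.7%) and 50 of 92 BMCPs (54.3%). Its median was 3.17 CPM (highest 255) in the mature and 10.7 (highest 523) in the BMCP gate. Pooled, it was at 22.2 and 57.3 CPM, a log2 ratio of -1.33 that was -1.08 with TMM and -0.46 with spike-in scaling. BMCP 46, which carried B cell reads, held 1059 of the 6783 BMCP reads of Cdkn1b, and without that cell the ratio was -1.11. Ccnd3 and Cdkn1b were thus lower in mature mast cells under TMM, DESeq2 and spike-in scaling, but Ccnd3 was past 2-fold under none of the 3 and Cdkn1b under TMM and DESeq2 only.

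Kif23, a motor of the cleavage midzone, was the spindle and kinetochore gene most often seen outside the rich cells. It had 10 reads or more in 55 of 91 mature mast cells and 43 of 92 BMCPs, with medians of 101 and 2.91 CPM and maxima of 849 and 12312. BMCP 55 alone held 11592 of its 36011 BMCP reads, and the pooled log2 ratio moved from -0.95 to -0.40 without that cell. In the rich cells Kif23 was at 524, 626 and 381 CPM in cells 70, 59 and BMCP 48, within the range of the others, and at 4.23 in mature mast cell 25. Lbr, the lamin B receptor of the nuclear envelope, was found in 71 and 52 cells, with medians of 187 and 64.9 CPM and a pooled log2 ratio of 0.24. Smc4 was found in 48 and 33 cells (medians 28.2 and 0.256 CPM, log2 ratio 0.67).

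Of the common replication genes, Pcna was found in 50 and 28 cells, with medians of 16.3 and 0 CPM, although its pooled levels were close, at 32.7 and 35.97. Slbp, which binds histone messages, was found in 54 and 42 cells, with medians of 55.1 and 1.21 and pooled levels of 90.1 and 88.96. Mcm3 was found in 29 and 15 cells at pooled levels of 123 and 126 CPM, and BMCP 52 held 4514 of its 14953 BMCP reads. For these 3 genes more mature mast cells than BMCPs had reads while the pooled levels differed by less than 2-fold. Detection of all genes was also higher in the mature gate. At 100000 reads per cell the medians were 2882 genes in the other mature mast cells and 2469 in the other BMCPs. Without thinning they were 4130 and 3748 genes. The part of this wider difference in the cell counts of the 3 genes was not tested.

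Rfc2, a subunit of the clamp loader, was found in 87 of 91 mature mast cells and 88 of 92 BMCPs. Its lowest, median and highest levels were 0, 793 and 1978 CPM in the mature gate and 0.726, 1168 and 4295 in BMCPs. Rfc2 lies at chr5:134581366-134601805 on the plus strand of GRCm38 and shares 952 exonic bases with Lat2, an adaptor gene of mast cell signalling on the other strand. Lat2 had medians of 1305 and 1825 CPM in the 2 gates and 10 reads or more in 91 and 89 cells. The labels do not say that the libraries kept strand, so reads of Rfc2 and Lat2 could not be told apart in the shared bases, and the level of Rfc2 is uncertain in every cell.

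**Figure D5:**
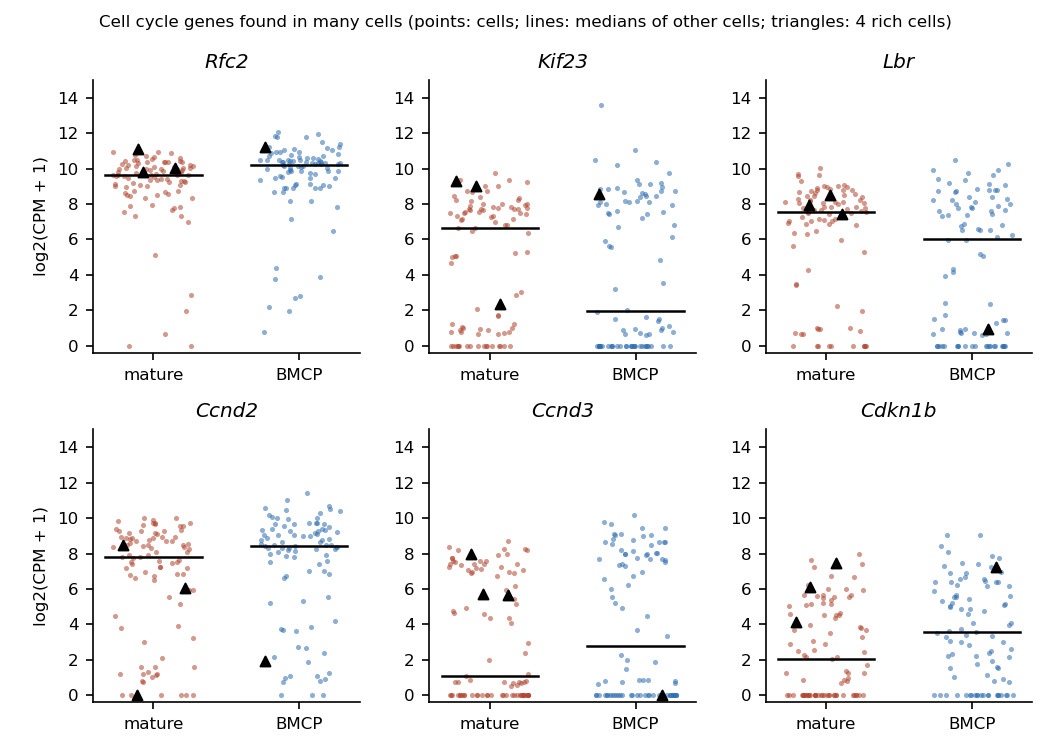
Level of 6 common cell cycle genes, as log2(CPM + 1), in each mature mast cell (red) and BMCP (blue); lines are medians of the other cells and black triangles the 4 rich cells. The gates overlap for all 6 genes, the mature medians lie below the BMCP medians for Rfc2, Ccnd2, Ccnd3 and Cdkn1b and above them for Kif23 and Lbr, and the triangles for Ccnd2 lie below the medians in mature mast cells 70 and 59 and BMCP 48.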

How the data were processed

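Single cells were sequenced as full-length poly(A) libraries with 50 base single-end reads and ERCC spike-ins. The deposited values are raw counts per gene; per the submitters' processing notes, GSNAP, HTSeq 0.5.3p3 and mm10 were used by the authors, and strand use is not given in the sources used here. No molecular identifiers were used, so intervals cover counting error only. Of the 46078 gene rows, 45143 matched a symbol. Spike-ins and rows that name no gene stayed out of totals; reads in no feature were 12.5% of the mature and 16.2% of the BMCP reads, and ambiguous reads 2.97% and 3.24%.

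Counts were turned into CPM per cell or per pool, and ratios were log2 with a pseudocount of 1 CPM for genes at 5 CPM or more in 1 pool, with a 2-fold limit. A zero was bounded by 3 counts over the group. The labels tie no cell to a mouse, plate or index kit, so edgeR and DESeq2 supplied scaling factors only and no test was run. No 2 cells had identical counts. Members described with values per cell were those at 10 reads in every rich cell, in at least 25% of the other cells of a gate, or past the 2-fold limit between gates; the others follow by role. Outside the panel, the 10 highest and 5 lowest ratios and the 3 most abundant genes of each list were named. Of the marker lists, 1 gene is not reported here. The members and lists were chosen with earlier results of these data known. Alternatives were other scalings, read and gene limits, thinning and leaving out cells. The scripts were tested on simulated data. Coordinates are GENCODE M21 on GRCm38, and promoters RefSeq on GRCm38.p6. Versions were Python 3.11.15, numpy 2.4.6, pandas 2.3.3, scipy 1.17.1, R 4.3.3, edgeR 4.0.16 and DESeq2 1.42.0.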

Additional observations from a re-analysis of the deposited data

Results flagged for a closer look

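The 2 BMCPs left out for low depth still had reads of the panel: BMCP 6 had 5 such reads and BMCP 93 had 66, with Ckap5, Lbr, Rfc2 and Ccnd2 at 10 reads or more in the latter. These cells entered no comparison.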

How the results depend on the processing

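No paired analysis was possible because the labels pair no cells and assign none to a mouse. With 15 genes as the limit, 7 mature mast cells were rich in cell cycle genes in place of 3. The share of panel reads in the rich cells was 11.1% with cells weighted equally and 7.57% with mature mast cell 25 among the others, beside 9.04%. The log2 ratio of summed panel levels, mature over BMCP, was -0.24 over all kept cells; it was 0.011 with TMM scaling, -0.013 with DESeq2 size factors, 0.68 with spike-in scaling (0.52 without BMCP 55), -0.21 as a mean over cells, -0.25 without BMCPs 46 and 80, -0.19 without BMCP 55, and -0.42 and -0.057 in the lower and higher run of cell numbers. Without the rich cells it was -0.36, and in the same order -0.11, -0.13, 0.54 (0.38), -0.38, -0.37, -0.32, -0.38 and -0.34. The member median of 0.02 became 0.27, 0.25 and 0.91 with TMM, DESeq2 and spike-in scaling. The same scalings moved the median of all genes from -0.26 to -0.00, -0.02 and 0.65. With spike-in scaling 14 members were at least 2-fold higher in mature mast cells (12 without BMCP 55) and 1 in BMCPs (1 without BMCP 55). The median of the further cell cycle genes in the rich cells, 3.24, ranged from 3.08 to 3.64 when each rich cell was left out in turn and was 3.02 without a minimum level. Granule shares without the panel were 22.3%, 20.4%, 25.8% and 8.02% in mature mast cells 70, 59 and 25 and BMCP 48. Among the genes past 2-fold between gates, the sign changed for Ccna2 and Top2a in the higher run of cell numbers, to nearly level values (0.046 each). Without BMCP 46 it changed for Top2a (1.29), which was then below 5 CPM in both gates. No reversal is read from these values. The causes were not tested. With 4 rich cells and 1 pooled sample per gate, no spread between mice could be given, and genes with few reads were limited by depth as well.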

Other observations

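Candidates outside the panel had 10 reads or more in each of mature mast cells 70 and 59 and BMCP 48. They also had at least 50 CPM in those 3 cells pooled, and 1383 genes met both conditions. After Pbk, the largest ratios over the other 184 cells were of Ankle1 (a nuclease), Cdca3, Mxd3 (a Myc network repressor) and Spc24 (a kinetochore protein). Pclaf (a partner of Pcna) and Esco2 (which acetylates cohesin in S phase) followed. Ankle1 had 1615 reads in the 3 cells and Cdca3 1459, and no other cell had 10 reads of either. Mxd3 had 1285 and Spc24 1187 reads, again with no other cell at 10. Pclaf had 1244 reads, with 2 other cells at 10. Lower in the 3 cells, Pirb, an inhibitory receptor, had no read, beside 192 CPM in the pooled others, where 97 of 184 cells had 10 reads or more. Many of the other cells thus also lacked 10 reads of Pirb.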
